A study of Homo sapiens with 6 samples.

Results

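The NF-kappaB subunits and their feedback genes were examined as 10 genes, taken by symbol from the 35474 genes listed in the deposited counts table. The 5 subunits were NFKB1, NFKB2, REL, RELA and RELB, and the 5 feedback genes were NFKBIA, NFKBIE, TNFAIP3, BIRC3 and TRAF1. All 10 passed the filter on low counts, which left 20776 genes for the test. The cells were A549, an established line from a human lung adenocarcinoma. The siBAP18 group held 3 cultures transfected with an siRNA against the chromatin-associated protein BAP18, the siCtrl group held 3 cultures transfected with a non-targeting siRNA, and all 6 were harvested after 48 h. Which BAP18 siRNA was used for these cultures is not given in the sources used here, and the labels name no cytokine or other stimulus. All values come from bulk poly(A) RNA.

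NF-kappaB is a family of dimeric transcription factors. In resting cells the dimers are held in the cytoplasm by IkB proteins, and cytokine or danger receptors release them by way of the IkB kinase complex, which marks IkB for destruction. Dimers of NFKB1 and RELA serve the canonical branch, whereas RELB paired with processed NFKB2 serves the non-canonical branch, which is driven by the kinases MAP3K14 and CHUK. Many target genes encode the pathway's own parts and brakes, among them IkB proteins and the ubiquitin-editing enzyme TNFAIP3, so their transcripts are often read as a record of pathway output in epithelial and immune cells.

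NF-kappaB dimers bind DNA words of the kappaB consensus, and the members' promoters are shown first because many of these genes are known to be controlled by the factors they encode or restrain. Promoter windows, from 250 bases before to 50 after each start, came from RefSeq (GRCh38.p14) and were matched by symbol for 8 of the 10 members, all but RELB and NFKBIE. A match to the kappaB consensus on either strand, with overlapping matches merged, was held by 6 of these 8 genes. The same search found a match for 8.94% of 11493 tested genes with a promoter in the same source and in 5.91% of all 35116 promoters. Each sequence below is a stretch of 30 bases on the strand of its gene, written 5′ to 3′, with the matched letters in capitals, and positions are on GRCh38.p14.
NFKB1, chr4:102501300-102501329, + strand: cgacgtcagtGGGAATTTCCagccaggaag
NFKB2, start 2, chr10:102394462-102394491, + strand: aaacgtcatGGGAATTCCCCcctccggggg
NFKB2, start 3, chr10:102395674-102395703, + strand: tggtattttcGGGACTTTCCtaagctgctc
REL, chr2:60881518-60881547, + strand: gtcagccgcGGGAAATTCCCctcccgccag
NFKBIA, chr14:35404811-35404840, − strand: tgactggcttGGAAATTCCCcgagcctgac
TNFAIP3, chr6:137867188-137867217, + strand: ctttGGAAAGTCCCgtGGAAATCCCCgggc
BIRC3, chr11:102317275-102317304, + strand: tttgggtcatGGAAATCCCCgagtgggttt

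All matches lay before the starts, at distances that the search window limits. The NFKB1 match ended 40 bases before its start, the REL match 37 bases before, and the NFKBIA match 72 bases before. TNFAIP3 held a pair of matches within one 30-base stretch, the nearer of which ended 46 bases before the start. NFKB2 has 3 starts in this source, of which the second held matches that ended 97 and 69 bases before it and the third held matches that ended 167 and 12 bases before it. The BIRC3 matches ended 190 and 126 bases before its start. No match was found in the windows of RELA, with 2 starts, or TRAF1, with 3. Of the stretches shown, those of NFKBIA and BIRC3 lay outside the exons listed for these genes in the counts table. Those of NFKB1, NFKB2, REL and TNFAIP3 overlapped a listed exon by at least 1 base. The stretch around the NFKB2 match that ended 167 bases before the third start, not shown, lay outside the listed exons.

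**Figure D1:**
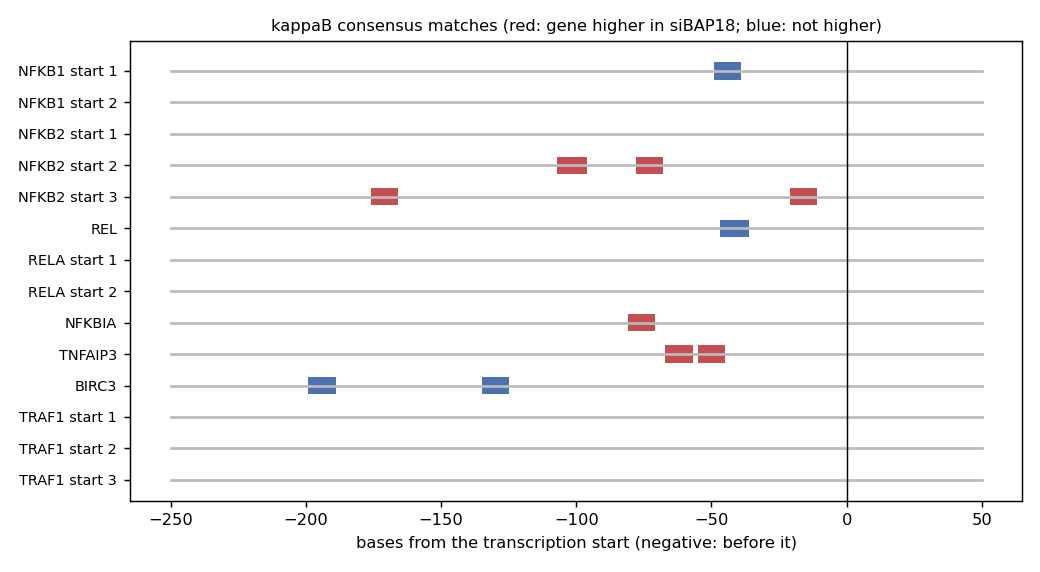
Places of kappaB consensus matches in the 14 RefSeq promoters of the 8 members that were matched, in bases from the transcription start, with 1 line per start and 1 box per match. Red marks genes with higher counts in siBAP18 at an adjusted p under 0.05 and blue the others. The boxes of 3 of 4 higher genes and 3 of 4 other genes all lie before the start.

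Of the 10 members, 6 were higher and 1 was lower in siBAP18 at an adjusted p under 0.05 in the quasi-likelihood test of edgeR, adjusted over all genes tested by the Benjamini-Hochberg method. Over all 20776 genes, 49.6% passed this test, 24.5% as higher and 25.1% as lower, so a large share of the transcriptome differed between these groups. With an absolute log2 fold change over 1 in addition, RELB, NFKBIE, TNFAIP3 and TRAF1 were called, all higher, where 8.46% of all genes were called and 4.72% were called higher. The 3 siBAP18 libraries lay wholly above the 3 siCtrl libraries for 6 members, against 27.6% of all genes, and wholly apart in either direction for 7 members, against 56.6%. The median log2 fold change was 0.79 over the members and 0.0010 over all genes tested. By role, the median was 0.11 over the 5 subunits and 1.19 over the 5 feedback genes. The members were chosen with earlier results of these data known. These counts and medians therefore only describe the set, and no test of the set was made. In bulk RNA, a change in the number of cells that express a gene and a change in its RNA per cell cannot be told apart.

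Total counts ranged from 42094524 to 56548620 per library. Mitochondrial genes took 6.87% to 7.43% of counts in siCtrl and 5.28% to 6.14% in siBAP18, and the part of this difference in the results below was not tested. C17orf49, the symbol under which BAP18 is listed, had 15.1 ± 1.09 CPM (counts scaled to the TMM-adjusted library total) in siCtrl and 2.41 ± 0.235 in siBAP18 (SD, n = 3 each). Its listed exon bases are shared by 44.3% with RNASEK-C17orf49 on the same strand, which had 41.1 CPM in siCtrl and fell by 0.24 on the log2 scale, and by 55.8% with MIR497HG on the opposite strand, which fell by 2.57, so the C17orf49 value is uncertain where shared bases were counted. The epithelial and A549 markers KRT8, KRT18, KRT19, EPCAM, AKR1C1, AKR1B10 and CDH1 were present in every library, the lowest being CDH1 at 4.02 to 10.7 RPKM, and 6 of the 7 fell in siBAP18. CDH1 fell most, with a log2 fold change of −1.32, followed by AKR1B10 at −0.96 and AKR1C1 at −0.87. Of the other leukocyte markers listed, MS4A1 had 0 to 1 counts per library, LYZ 2 to 16 and CD14 42 to 60. Of the fibroblast markers, COL1A2 had 0 to 8 counts and PDGFRB 0 to 6, but COL1A1 had 349 to 611 and fell by 0.38 on the log2 scale. Of the endothelial markers, VWF had 0 to 6 counts, PECAM1 8 to 45 and CDH5 8 to 36, and PECAM1 fell by 1.53 while CDH5 rose by 1.10 on the log2 scale. CD68, which macrophages and the lysosomes of many cells share, rose from 66.2 ± 3.47 to 136 ± 21.8 CPM. The summed level of the leukocyte markers listed, most of it from CD68, was 29.6 to 31.7 RPKM in siCtrl and 54.7 to 70.3 in siBAP18, and its part in the results was not tested.

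**Figure D2:**
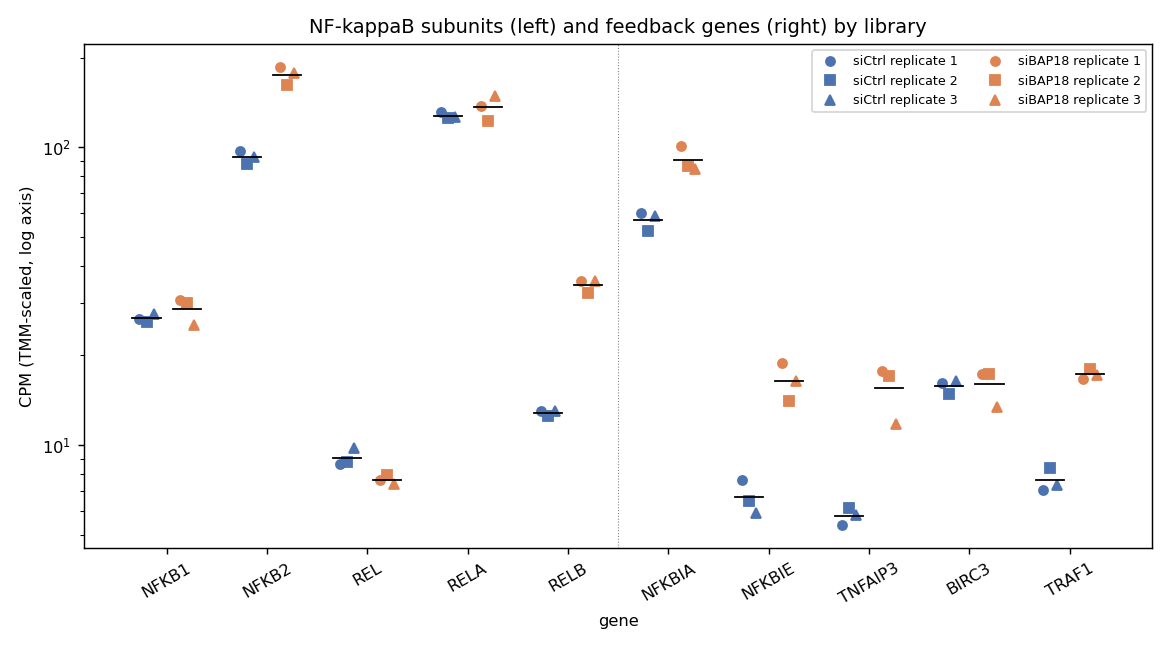
CPM (TMM-scaled, logarithmic axis) of the 10 members in each library, with siCtrl in blue, siBAP18 in orange, 1 symbol per replicate and a black line at each group's mean. NFKB2, RELB, NFKBIA, NFKBIE, TNFAIP3 and TRAF1 lie higher in all 3 siBAP18 libraries, REL lies lower, and the groups overlap for NFKB1, RELA and BIRC3.

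Of the 5 subunits, RELB and NFKB2 rose in siBAP18, REL fell, and NFKB1 and RELA did not pass the test, although each passed it as higher with a library left out, as given below. Differences between subunits in their change were not tested. RELB (chr19:45001430-45038198, + strand on GRCh38, as the counts table gives it), whose protein acts mainly as the partner of processed NFKB2, had 13.1, 12.5 and 13.0 CPM in siCtrl replicates 1, 2 and 3. It had 35.6, 32.5 and 35.4 CPM in siBAP18 replicates 1, 2 and 3. Every siBAP18 library stood far above every siCtrl library, with little spread within either group. The RELB log2 fold change was 1.42 (SE 0.0756), or 2.68-fold, with an edgeR adjusted p of 7.99e-14, which placed it at percentile 97.4 of all genes tested.

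NFKB2 (chr10:102394110-102402529, + strand) encodes a precursor that is cut to its DNA-binding form when the non-canonical branch is active. Its level was 97.0, 88.1 and 92.7 CPM in the 3 siCtrl libraries and 186, 162 and 178 CPM in the 3 siBAP18 libraries. All siBAP18 libraries were higher, and the gap between groups exceeded the spread in each. The log2 fold change of NFKB2 was 0.92 (SE 0.0701), or 1.89-fold, with an edgeR adjusted p of 5.7e-11, so it passed the test and lay just under the threshold for a call. NFKB2 was also the most deeply counted of the members that rose, with 4095 to 10139 counts per library.

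NFKB1 (chr4:102501329-102617302, + strand) encodes the precursor of the classical partner of RELA. It had 26.5, 26.0 and 27.6 CPM in siCtrl and 30.8, 30.1 and 25.2 CPM in siBAP18. Replicates 1 and 2 of siBAP18 lay above the siCtrl libraries and replicate 3 below them, so the groups overlapped. For NFKB1 the log2 fold change was 0.11 (SE 0.0786), with an edgeR adjusted p of 0.269. Without siBAP18 replicate 3 the NFKB1 value was 0.19 (SE 0.0637), with an edgeR adjusted p of 0.0131.

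RELA (chr11:65653596-65663094, − strand), which carries the main transactivating subunit of the canonical dimer, had 131, 126 and 126 CPM in siCtrl. In siBAP18 it had 138, 123 and 149 CPM, with replicate 2 below all siCtrl libraries and replicate 3 above them. The groups overlapped, and the RELA log2 fold change was 0.10 (SE 0.0715), with an edgeR adjusted p of 0.279. Without siBAP18 replicate 2 it was 0.17 (SE 0.0623), with an edgeR adjusted p of 0.0241.

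REL (chr2:60881521-60931610, + strand), the subunit best known from lymphoid cells, was the member with the lowest RPKM in both groups and the single member that fell. It had 8.65, 8.77 and 9.78 CPM in siCtrl and 7.63, 7.91 and 7.38 CPM in siBAP18. All 3 siBAP18 libraries lay below all 3 siCtrl libraries, but by little. The REL log2 fold change was −0.24 (SE 0.0975), with an edgeR adjusted p of 0.0398. An adjusted p under 0.05 was lost in 10 of 17 alternatives, among them the removal of siCtrl replicate 1, 2 or 3 (edgeR adjusted p of 0.0525, 0.0594 and 0.191) or of siBAP18 replicate 1 or 3 (0.0937 and 0.0625). The REL value is also uncertain because 5702 of its 11255 listed exon bases are shared with RP11-373L24.1 on the same strand, which fell by 0.46 on the log2 scale with an edgeR adjusted p of 0.00369. How the authors' counting treated shared bases is not given in the sources used here.

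The level of the 5 subunits relative to each other was compared as RPKM, which allows for gene length. In siCtrl, RELA took 43.9% ± 0.630 of the summed subunit RPKM, NFKB2 38.7% ± 0.725, NFKB1 8.00% ± 0.274, RELB 7.94% ± 0.0978 and REL 1.51% ± 0.115 (SD, n = 3). In siBAP18, NFKB2 took 48.4% ± 0.919, RELA 30.9% ± 1.60, RELB 14.1% ± 0.193, NFKB1 5.71% ± 0.807 and REL 0.844% ± 0.0836. NFKB2 and RELB thus took larger shares in all 3 siBAP18 libraries than in any siCtrl library, and the other subunits smaller ones. The summed level was 54.4, 52.3 and 52.9 RPKM in siCtrl and 84.8, 77.2 and 80.3 RPKM in siBAP18.

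Ratios of RPKM within a library gave the same contrast without a sum. RELB to RELA was 0.179, 0.179 and 0.185 in siCtrl and 0.465, 0.476 and 0.427 in siBAP18. The ratio of NFKB2 to NFKB1 was 5.11, 4.73 and 4.69 in siCtrl and 8.44, 7.51 and 9.84 in siBAP18. NFKB2 stood below RELA in every siCtrl library, at 0.903, 0.852 and 0.894 of its level, and above it in every siBAP18 library, at 1.65, 1.61 and 1.45. With 3 libraries against 3 an exact permutation test of a single ratio cannot give a two-sided p under 0.10, so the ratios are given as values.

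**Figure D3:**
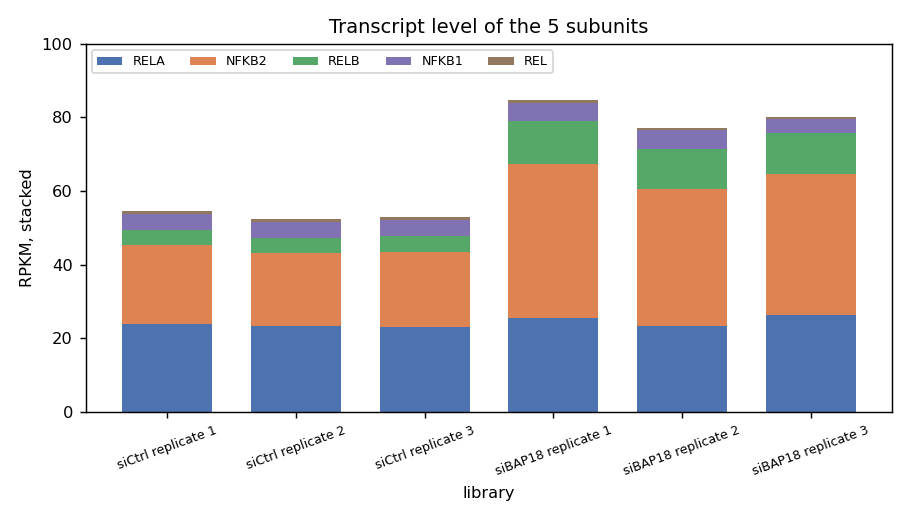
RPKM of the 5 subunits stacked in each library, on an axis that starts at 0. The summed level is 52.3 to 54.4 in the siCtrl libraries and 77.2 to 84.8 in the siBAP18 libraries, with RELA near the same height throughout and the layers of NFKB2 and RELB thicker in siBAP18.

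The feedback genes rose with a single exception. Of the 5, NFKBIA, NFKBIE, TNFAIP3 and TRAF1 were higher in siBAP18 and BIRC3 did not pass the test. NFKBIA (chr14:35401511-35404749, − strand) encodes the main inhibitor of RELA dimers and is among the genes those dimers induce fastest. It had 60.1, 52.3 and 58.9 CPM in siCtrl and 101, 86.6 and 84.2 CPM in siBAP18. The groups did not overlap, and siBAP18 replicate 1 stood above the other two. Its log2 fold change was 0.67 (SE 0.0766), or 1.59-fold, with an edgeR adjusted p of 7.28e-08, the smallest change of the 4 feedback genes that rose.

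NFKBIE (chr6:44258166-44265788, − strand) encodes a further IkB protein that restrains RELA and REL. It had 7.62, 6.47 and 5.90 CPM in siCtrl and 18.8, 14.1 and 16.4 CPM in siBAP18. Even the lowest siBAP18 library was well above the highest siCtrl library. The NFKBIE log2 fold change was 1.30 (SE 0.109), or 2.46-fold, with an edgeR adjusted p of 3.65e-10. The ratio of NFKBIE to NFKBIA in RPKM was 0.108 ± 0.0134 in siCtrl and 0.167 ± 0.0155 in siBAP18, so NFKBIA remained the more abundant of these IkB transcripts in both groups.

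TNFAIP3 (chr6:137867188-137883312, + strand) encodes the ubiquitin-editing enzyme that switches off signaling from the receptors to the IkB kinase complex. It was counted 286, 286 and 271 times in the 3 siCtrl libraries and 964, 993 and 478 times in the 3 siBAP18 libraries. On the scaled level it had 5.78 ± 0.387 CPM in siCtrl and 15.5 ± 3.23 CPM in siBAP18 (SD, n = 3 each), with 17.7 and 11.8 CPM in siBAP18 replicates 1 and 3. All siBAP18 libraries were higher, but replicate 3 fell short of the other two. At 1.43 (SE 0.121), or 2.70-fold, with an edgeR adjusted p of 3.48e-10, the log2 fold change of TNFAIP3 was the highest of the 10 members, close to that of RELB. The antisense gene RP11-356I2.4 shares 95 of the 5051 listed exon bases of TNFAIP3.

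TRAF1 (chr9:120902393-120929173, − strand) encodes an adaptor of TNF-family receptors that is itself an NF-kappaB target. It had 7.05, 8.39 and 7.36 CPM in siCtrl and 16.7, 17.9 and 17.2 CPM in siBAP18. The groups were wide apart, and the siBAP18 libraries were close to each other. TRAF1 had a log2 fold change of 1.19 (SE 0.0902), or 2.28-fold, with an edgeR adjusted p of 5.68e-11.

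BIRC3 (chr11:102317450-102339403, + strand), a ubiquitin ligase of the inhibitor-of-apoptosis family that binds TRAF proteins and is known as a target of the pathway, stood apart from the other feedback genes. It had 16.2, 14.8 and 16.4 CPM in siCtrl and 17.4, 17.3 and 13.4 CPM in siBAP18. Replicates 1 and 2 of siBAP18 were above the siCtrl libraries and replicate 3 was below them. The BIRC3 log2 fold change was 0.03 (SE 0.0929), with an edgeR adjusted p of 0.828. Its sign turned without siCtrl replicate 2 (−0.020), siBAP18 replicate 1 (−0.033) or siBAP18 replicate 2 (−0.029), and without siBAP18 replicate 3 the value was 0.14, with an edgeR adjusted p of 0.13. BIRC3 was counted 542 to 1012 times per library, more often than TNFAIP3, TRAF1 or NFKBIE in each siCtrl library.

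Among the 8 members searched, matches were found in equal numbers of those that rose and those that did not. RELB and NFKBIE, which also rose, had no promoter in the source and were not searched. Of the 4 matched members that rose, NFKB2, NFKBIA and TNFAIP3 held the kappaB consensus and TRAF1 did not. Of the 4 that did not rise, NFKB1, REL and BIRC3 held it and RELA did not. The stretches of BIRC3 and TNFAIP3 both hold the 10 letters GGAAATCCCC, and their log2 fold changes were 0.03 and 1.43.

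The members differed in their spread among the siBAP18 libraries. Replicate 3 was the lowest for NFKB1, REL, NFKBIA, TNFAIP3 and BIRC3, which is 5 of 10 members and near the share over all genes tested, 39.5%, and it was the highest for RELA. The deviation of replicate 3 from the group mean on the log2 scale was −0.37 for TNFAIP3, −0.25 for BIRC3, −0.18 for NFKB1 and 0.13 for RELA. For RELB, NFKB2 and TRAF1 the siBAP18 libraries differed less, with an SD on the log2 scale of 0.075, 0.103 and 0.051. The SD of TNFAIP3 was 0.323 in siBAP18 and 0.097 in siCtrl. Across genes, pairs of siBAP18 libraries also differed more than pairs of siCtrl libraries. Their chi-square per degree of freedom was 10.1 to 23.3, against 3.95 to 4.57 in siCtrl. Without siBAP18 replicate 3 the same 6 members were higher at an adjusted p under 0.05, and NFKB1 joined them.

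Placed in order by RPKM, the members spanned a wide range. In siCtrl the highest were NFKBIA (24.0 ± 1.53) and RELA (23.3 ± 0.409), whose ranges overlapped, followed by NFKB2 (20.6 ± 0.810). NFKB1 (4.26 ± 0.102) and RELB (4.22 ± 0.0557) came next and overlapped, then NFKBIE (2.58 ± 0.329) and BIRC3 (2.09 ± 0.0908). TRAF1 (1.18 ± 0.121) and TNFAIP3 (1.14 ± 0.0874) overlapped, and REL (0.804 ± 0.0521) was lowest. These values are means ± SD of 3 libraries, and neighbors not said to overlap did not.

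In siBAP18 the order was different, with REL again in the last place. NFKB2 (39.1 ± 2.43 RPKM) and NFKBIA (38.2 ± 4.34) led and overlapped, and RELA (25.0 ± 1.60) was below them. RELB (11.4 ± 0.399) and NFKBIE (6.37 ± 0.875) now stood above NFKB1 (4.60 ± 0.625). TNFAIP3 (3.09 ± 0.727) and TRAF1 (2.68 ± 0.166) overlapped. BIRC3 (2.14 ± 0.372), which was above both in siCtrl, lay below TRAF1 and overlapped TNFAIP3, whose lowest library had 2.25 RPKM. REL had 0.680 ± 0.0475 RPKM.

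The other genes of the pathway were taken from lists by role, which held 103 genes outside the 10 members. Of these, 90 were tested, and 35 were higher and 23 lower in siBAP18 at an adjusted p under 0.05, while 32 did not pass. Over all genes tested 24.5% were higher and 25.1% lower. The median log2 fold change of the 90 genes was 0.09, with 9 called higher and 1 called lower. Of all genes, 4.72% were called higher and 8.46% in either direction. These lists too were chosen with earlier results of these data known. The counts by role below are to be read against the shares over all genes, and no test of any list was made.

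Among the other IkB proteins, 3 of 4 were higher and none was lower, with a median of 0.76. NFKBIB, an IkB protein that holds RELA dimers in the cytoplasm, had 29.4 ± 1.76 CPM in siCtrl and 82.6 ± 2.36 in siBAP18 (SD, n = 3), a log2 fold change of 1.49 (SE 0.0703) with an edgeR adjusted p of 7.6e-15. BCL3, a nuclear IkB protein that joins NFKB2 products on DNA, went from 9.56 ± 0.184 to 22.5 ± 1.46 CPM, a log2 fold change of 1.23 (SE 0.0823) with an edgeR adjusted p of 6.07e-12. The IkB genes that rose thus numbered 5 of 6 when NFKBIA and NFKBIE are included, and NFKBID was the exception. The promoters of all 4 genes of this list held a kappaB consensus match.

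Of the 12 kinases and kinase partners that feed the pathway, 2 were higher and 6 lower, none of them called, with a median of −0.20, beside 24.5% higher and 25.1% lower over all genes. CHUK, the IkB kinase subunit that the non-canonical branch depends on, fell from 13.3 ± 1.03 to 8.67 ± 0.513 CPM, a log2 fold change of −0.61 (SE 0.0922) with an edgeR adjusted p of 4.48e-06. ERLIN1 on the same strand, with a log2 fold change of −0.51, shares 37 of the 6928 listed exon bases of CHUK. TAB3, an adaptor of the upstream kinase MAP3K7, fell from 12.9 ± 0.684 to 7.64 ± 0.186 CPM, by 0.75 on the log2 scale (SE 0.0906), with an edgeR adjusted p of 1.46e-07. MAP3K14, singled out after its values were seen because it is the kinase of the non-canonical branch, had 77.8 ± 2.70 CPM in siCtrl and 77.0 ± 3.79 in siBAP18, with an edgeR adjusted p of 0.878.

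Of 11 receptors tested, 1 was higher and 3 were lower, and none of the 10 receptor genes with a RefSeq promoter held the kappaB consensus. The receptor that rose was TNFRSF12A, the receptor for the cytokine TNFSF12 and a known activator of the non-canonical branch. It went from 10.5 ± 0.313 to 41.6 ± 4.12 CPM, a log2 fold change of 1.99 (SE 0.0828) with an edgeR adjusted p of 6.95e-16. TLR3, a sensor of double-stranded RNA, had 0.311 ± 0.0849 CPM in siCtrl and 0.108 ± 0.0375 in siBAP18, a log2 fold change of −1.55 (SE 0.503) with an edgeR adjusted p of 0.0123. That call was lost without siCtrl replicate 1 (edgeR adjusted p 0.069) or siBAP18 replicate 1 (0.0677). It was also lost in the DESeq2 Wald test (adjusted p 0.082) and with limma on log2(RPKM + 1) without a filter (log2 fold change −0.042, adjusted p 0.119), and TLR3 did not pass the filters of 3 other settings.

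Ligands were scarce in these cells, with 3 of 10 passing the filter. Of these 3, 1 was higher and 2 did not pass the test, with a median of −0.11. LTB, a membrane-bound ligand of the lymphotoxin receptor, rose from 0.352 ± 0.119 to 2.60 ± 0.548 CPM, a log2 fold change of 2.86 (SE 0.261) with an edgeR adjusted p of 1.52e-09. TNF, the cytokine best known for activating the pathway, had mean levels of 0.0197 CPM in siCtrl and 0.0473 in siBAP18 and was not tested.

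Adaptors and ubiquitin ligases went both ways, with 9 of 20 higher, 6 lower and a median of 0.18. IRAK2, a kinase-like adaptor of interleukin and Toll-like receptors, rose from 7.45 ± 0.850 to 16.4 ± 1.10 CPM, by 1.14 on the log2 scale (SE 0.0961), with an edgeR adjusted p of 3.65e-10. Of the 12 deubiquitinases and other brakes, 4 were higher and 5 lower. CYLD, which removes ubiquitin chains that carry the signal, rose by 0.88 (SE 0.0921) on the log2 scale with an edgeR adjusted p of 1.43e-08, and TNIP1, a binding partner of TNFAIP3, by 0.66 (SE 0.0719) with an edgeR adjusted p of 3.24e-08. In the machinery that destroys IkB, 1 of 5 was lower and none was higher, SKP1 falling by 0.29 on the log2 scale (SE 0.0658) with an edgeR adjusted p of 0.000598. CUL1 had a log2 fold change of −0.17 (SE 0.0709) with an edgeR adjusted p of 0.0535, and of 0.0221 without siBAP18 replicate 2.

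Of 16 cell-bound target genes tested outside the feedback set, 10 were higher and 1 was lower, with a median of 0.24, beside 24.5% higher and 25.1% lower over all genes. ICAM1, an adhesion molecule for leukocytes, went from 1.41 ± 0.0708 to 4.16 ± 0.0932 CPM, a log2 fold change of 1.56 (SE 0.154) with an edgeR adjusted p of 5.42e-09. The antisense gene CTD-2369P2.8 shares 815 of the 3706 listed exon bases of ICAM1. Another antisense gene, CTD-2369P2.5, shares 61 of them. It had 19.25 CPM in siCtrl and 29.66 in siBAP18, a log2 fold change of 0.62 with an edgeR adjusted p of 1.21e-06. SDC4, a heparan sulfate proteoglycan of the cell surface, rose from 6.38 ± 0.182 to 12.8 ± 1.14 CPM, by 1.00 (SE 0.0968), with an edgeR adjusted p of 4.05e-09. The SDC4 value lay just over the threshold for a call. It was 0.935 without siBAP18 replicate 1, 0.975 without siCtrl replicate 2, 0.986 without a filter and 0.774 with limma on log2(RPKM + 1). Its direction and an adjusted p under 0.05 were kept in all 17 alternatives. Of 7 secreted targets tested, 5 were higher and 1 was lower, with a median of 0.79. CCL2, a chemokine for monocytes, rose from 1.43 ± 0.172 to 6.07 ± 0.985 CPM, a log2 fold change of 2.09 (SE 0.156) with an edgeR adjusted p of 4.14e-11. CXCL8, a chemokine for neutrophils, rose from 1.26 ± 0.350 to 4.46 ± 1.09 CPM, by 1.83 (SE 0.195), with an edgeR adjusted p of 2.07e-08.

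**Figure D4:**
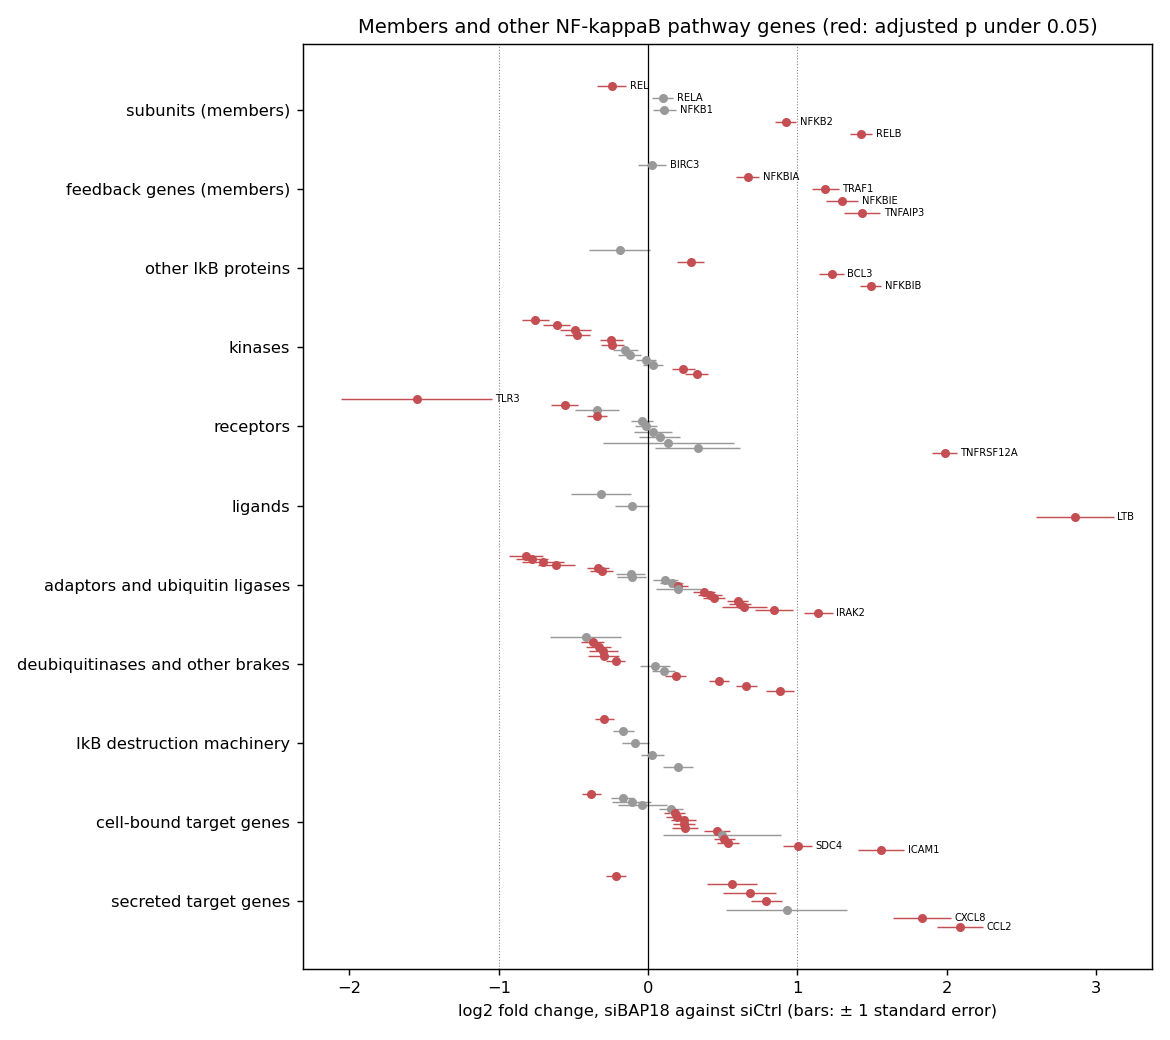
Log2 fold change of siBAP18 against siCtrl, with bars of 1 standard error, for the 10 members and the 90 other pathway genes tested, grouped by role, red at an adjusted p under 0.05 and gray otherwise, with dotted lines at the threshold of 1 in each direction. RELB at 1.42 and NFKB2 at 0.92 lie above the other subunits. BIRC3 at 0.03 lies below the other feedback genes, and the kinases have a median of −0.20.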

How the data were processed

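RNA from 3 siCtrl and 3 siBAP18 cultures of A549 cells was sequenced from strand-specific poly(A) libraries. The authors deposited whole-number read counts per gene, without normalization, and RPKM values. Recomputed from the counts, listed lengths and column totals, the RPKM values differed by a relative 5.1e-15 at most. The aligner, the counting program and its use of strand are not given in the sources used here. The submitters' processing notes name the builds hg38 and GRCm38 without a role, and the exon positions listed match GRCh38.

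Counts were filtered with filterByExpr, scaled by TMM and compared by condition across all 6 libraries with edgeR 4.0.16 in R 4.3.3, using the quasi-likelihood test and Benjamini-Hochberg adjustment. Calls required both an adjusted p under 0.05 and a log2 fold change beyond 1 in either direction. CPM were computed on library totals multiplied by their TMM factors. Each SE was obtained from the F statistic, whose square root is the ratio of the log2 fold change to its SE. The steps were tested on simulated data for this comparison with 20747 genes, where the adjusted p was passed by 194 of 200 changed genes and by 11 unchanged ones. The 200 genes were changed equally often in each direction at a single dispersion, whereas 49.6% of genes passed in the data. Scaling and error rates under so many changes were thus not checked. The labels call the replicates biological. Same-numbered residuals correlated at −0.016, 0.050 and 0.0036 across genes, which cannot show whether same-numbered cultures were handled together. The main fit held no replicate block, and a fit with one is given below. No 2 replicates were copies of each other, the lowest chi-square per degree of freedom being 3.95. It was 3.95 to 4.57 for pairs of siCtrl libraries and 10.1 to 23.3 for pairs of siBAP18 libraries.

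The members and lists were chosen with earlier results of these data known. Named genes are all members, C17orf49 and, of each role, up to 4 called genes by smallest adjusted p, or 1 or 2 by smallest adjusted p where none was called. Alternatives were DESeq2 1.42.0 size factors and Wald test, upper-quartile and total-count scaling, the likelihood ratio test, other filters, limma 3.58.1 on log2 RPKM with a pseudocount of 1 or 0.1, a replicate block and each library left out. Promoters were searched with Python 3.11.15. Shared exon bases were counted from the positions in the table. Besides the overlaps given above, CUL1 shared 385 of 3548 bases with an antisense gene and SKP1 171 of 12771 with a same-strand gene. NFKBIB, TAB3, TNFRSF12A and CYLD shared at most 2.3% with any single gene.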

Additional observations from a re-analysis of the deposited data

How the results depend on the processing

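Over 17 alternatives, NFKB2, RELB, NFKBIA, NFKBIE, TNFAIP3 and TRAF1 kept their direction and an adjusted p under 0.05. REL lost it in 10, with adjusted p-values from 0.0315 to 0.299 over the 17. BIRC3 ranged from −0.033 to 0.14 on the log2 scale with 1 library left out, turning sign in 3 of the 6 fits. The 1758 genes called became 348 with limma on log2(RPKM + 1), 345 without its filter and 909 on log2(RPKM + 0.1), and the 4 members called became 2 on log2(RPKM + 1) with or without the filter. The larger pseudocount shrinks the fold changes of low genes by construction. With each library left out in turn, 1714 to 1934 genes and 4 members were called, and 6 to 8 members passed the adjusted p. The number of other pathway genes that passed, 58, was 41 to 61 over all alternatives. With a replicate block, 1741 genes and 4 members were called and 7 members passed. Among the genes named, CUL1 then passed, with an edgeR adjusted p of 0.0359. SDC4 came to lie just under the fold threshold, with a log2 fold change of 0.9996. Other scalings moved the median of all genes by 0.0104 at most on the log2 scale. Depth limits TLR3, LTB and the ligands that were not tested.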

Other observations

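Across the transcriptome, tested genes with a kappaB consensus match in a RefSeq promoter were compared in plain numbers with those without one, the members left out. Of 1021 genes with a match, 287 (28.1%) were higher and 301 (29.5%) lower in siBAP18 at an adjusted p under 0.05 in edgeR, and the median log2 fold change was −0.017. Of 10464 genes with a promoter and no match, 2829 were higher and 3136 lower, and the median was −0.0073. With the fold threshold added, 5.49% of genes with a match were called higher and 3.04% lower, against 3.78% and 4.03% of those without. By role, a match was held by 5 of 7 secreted target genes, 6 of 16 cell-bound target genes, 3 of 8 ligands and 3 of 12 deubiquitinases and other brakes with a promoter, and by 2 of 11 kinases and 2 of 18 adaptors. These shares are descriptions, and no test was made of them.

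The planned search of the longest GENCODE 29 3′ UTR of each member for words complementary to bases 2 to 8 of the guide strands found the word of siBAP18#1 in NFKB1 and BIRC3, that of siBAP18#2 in REL and that of siBAP18#3 in TNFAIP3 and BIRC3. Of 13743 tested genes with such a 3′ UTR, 14.1%, 11.2% and 6.88% held these words. The word of siCtrl was in none of the 10 members and in 3.01% of tested genes. NFKB2, RELA, RELB, NFKBIA, NFKBIE and TRAF1 held none of the words. Which siRNA was used is not known here, and no test was made.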
